A study of Mus musculus with 6 samples.

Results

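The ubiquitin C-terminal hydrolases are a family of enzymes, here the products of the 4 mouse genes Uchl1, Uchl3, Uchl5 and Bap1, that cut the bond at the carboxyl end of ubiquitin and so release what is attached there. Members were taken as all probe sets that the platform annotation names with exactly 1 gene symbol, that symbol being one of these. This gave 3 of the 18193 genes with such a probe set, and 5 of the 45037 probe sets: 1 for Uchl1, 2 for Uchl5 and 2 for Bap1. Uchl3 had 0, because the only probe set that names it is shared with another gene, and it is not described further. The family was chosen by the log2 difference of Uchl1 between mutant and wild-type arrays, which was known beforehand, so that contrast is given for all 5 probe sets as a description with no test.

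RNA came from the olfactory epithelium, the sensory lining of the nasal cavity, of mouse pups aged 1 day on a mixed C57Black6/J and 129SvJ background. Of the 6 arrays, 3 carried RNA of wild-type pups and 3 RNA of mutant pups, 1 pup per array. The labels say mutant without naming an allele; the series title asks for targets of KLF7, a neuronal transcription factor of the Krüppel-like family. RNA was amplified and labelled with biotin. The Klf7 transcript was lower in the mutant arrays on 4 of its 4 probe sets, by 4.44-fold to 8.32-fold, with no overlap between the groups. Rank correlations between arrays of the same genotype ran from 0.73 to 0.872 in wild type and from 0.741 to 0.828 in mutant (Spearman's rho over probe sets), and those between wild-type and mutant arrays of the same replicate number from 0.883 to 0.923.

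Ubiquitin is a small protein that enzymes attach to other proteins in a chain of activating, conjugating and ligating steps, often to mark them for the proteasome. Deubiquitinases reverse this, and the ubiquitin C-terminal hydrolases are the class of cysteine proteases that prefer small or unfolded adducts. UCHL1, also called PGP9.5, is among the most abundant proteins of neurons and its antibody is a standard stain for neurons and nerve fibres, olfactory sensory neurons included. UCHL3 also acts on the ubiquitin-like protein NEDD8. UCHL5, or UCH37, sits on the proteasome through its receptor ADRM1 and also in the INO80 chromatin remodelling complex. BAP1 is a nuclear tumour suppressor that with ASXL proteins removes ubiquitin from histone H2A.

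Promoter sequences of the 3 measured genes are shown because the series asks for targets of a Krüppel-like factor, a family that binds CACCC and GC boxes. Each window holds 250 bases before and 50 bases after the gene start in the RefSeq table of build GRCm38.p6, at chr5:66675871-66676170 for Uchl1, chr1:143777028-143777327 for Uchl5 and chr14:31251239-31251538 for Bap1, each on the plus strand. Capitals mark matches to CACCC or GGGCGG on either strand. Matches to CACCC shared 0 bases with matches to GGGCGG, while in Uchl5 and in Bap1 1 pair of neighbouring GGGCGG matches shared 1 base.
Uchl1: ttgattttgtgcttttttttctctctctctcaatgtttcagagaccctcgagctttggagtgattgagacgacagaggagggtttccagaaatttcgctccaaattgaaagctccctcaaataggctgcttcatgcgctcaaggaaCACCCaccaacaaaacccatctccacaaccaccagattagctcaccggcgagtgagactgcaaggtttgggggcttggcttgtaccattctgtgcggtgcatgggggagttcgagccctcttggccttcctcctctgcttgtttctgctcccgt
Uchl5: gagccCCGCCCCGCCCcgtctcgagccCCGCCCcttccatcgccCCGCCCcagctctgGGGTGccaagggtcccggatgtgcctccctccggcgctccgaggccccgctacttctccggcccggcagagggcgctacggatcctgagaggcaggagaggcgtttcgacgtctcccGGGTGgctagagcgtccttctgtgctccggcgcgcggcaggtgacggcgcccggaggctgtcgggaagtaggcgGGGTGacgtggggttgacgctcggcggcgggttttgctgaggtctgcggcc
Bap1: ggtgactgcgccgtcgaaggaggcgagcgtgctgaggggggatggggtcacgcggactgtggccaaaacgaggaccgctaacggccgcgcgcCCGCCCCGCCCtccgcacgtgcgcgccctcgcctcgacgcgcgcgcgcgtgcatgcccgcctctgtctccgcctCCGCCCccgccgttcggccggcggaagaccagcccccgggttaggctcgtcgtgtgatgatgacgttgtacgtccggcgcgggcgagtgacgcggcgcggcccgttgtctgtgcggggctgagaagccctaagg
The Uchl1 window held 1 match to CACCC, from base -104 to base -100 before the start, and 0 to GGGCGG. The Uchl5 window held 3 matches to CACCC and 4 to GGGCGG, and the Bap1 window 0 and 3. Among 32851 windows of the same length, 57.5% held CACCC and 35.7% held GGGCGG, so the single match of Uchl1 is common. At least as many GGGCGG matches as in Uchl5 stood in 5.5% of windows, and at least as many as in Bap1 in 10.7%. For CACCC, 9.3% of windows held at least as many matches as Uchl5. The windows of Uchl5 and Bap1 were also richer in G and C, at 73.3% and 73.7% against 50.7% for Uchl1 and a median of 52.7%. Such letter matches describe the window and do not show binding.

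Uchl1 was lower on all 3 mutant arrays than on any wild-type array. Its deposited intensities were 1263, 1096 and 924 on wild-type arrays 1, 2 and 3, and 622, 339.6 and 462 on mutant arrays 1, 2 and 3. After quantile normalization the wild-type log2 levels were 10.18, 10.01 and 10.23, and the mutant levels 9.19, 8.10 and 9.10. The wild-type arrays lay close together, mutant array 2 was the lowest of the 6, and the groups did not overlap on either scale. Wild type averaged 10.14 ± 0.12 and mutant 8.80 ± 0.60 (log2, SD, n = 3 each). Mutant minus wild type was thus -1.34 (SE 0.32), or 2.54-fold lower. Over all probe sets, 1.51% had groups that did not overlap and were lower in the mutant, and 1.2% had such groups and were higher. Of the 12703 genes measured above the dim level, 34, or 0.268%, had a difference as low as that of Uchl1 or lower, Uchl1 included. As Uchl1 was picked for this difference, these shares place it on the array and support nothing.

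**Figure D1:**
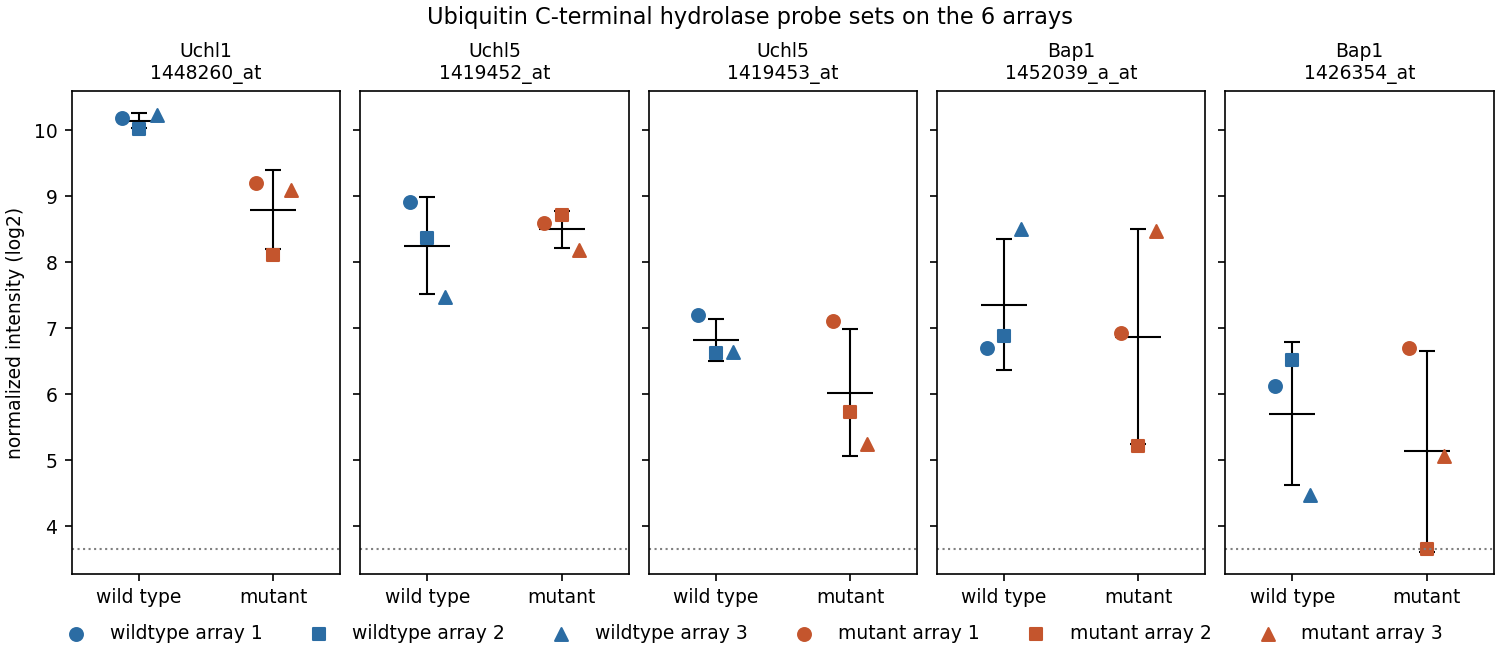
Normalized log2 intensity (y axis) of the 5 member probe sets, 1 panel each, in wild-type (blue) and mutant (orange) pups. Symbols give the replicate number, bars the mean ± SD of 3 arrays, and the dotted line the floor at 3.65. Uchl1 is the panel whose groups do not overlap, with mutant arrays from 8.10 to 9.19 below wild-type arrays from 10.01 to 10.23.

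Within arrays of the same replicate number, Uchl1 differed by -0.99, -1.91 and -1.14 (log2, mutant minus wild type) for numbers 1, 2 and 3. The pair numbered 2 had the widest gap. That no pair went the other way follows from groups that do not overlap and is no further result. When mutant array 2 was left out, the difference was -1.01 (log2), the smallest of those with 1 array left out; without mutant array 1 it was -1.52, the widest. The groups of Uchl1 did not overlap under any of 12 alternatives in normalization, floor, replicate block or arrays used. This count adds little. The block changes no level, the floors lie far below Uchl1, and groups already apart can hardly overlap once arrays are left out.

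**Figure D2:**
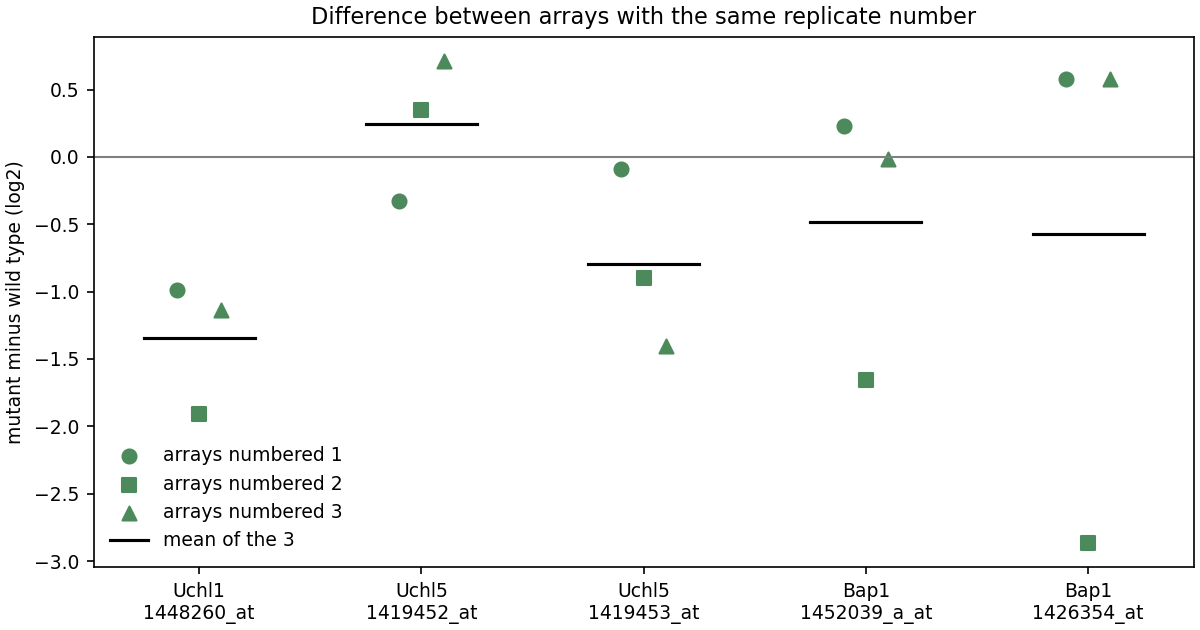
Log2 difference, mutant minus wild type, between arrays of the same replicate number (symbols) for the 5 member probe sets, with the mean of the 3 as a line. The 3 Uchl1 pairs lie between -1.91 and -0.99; for the other probe sets pairs lie on both sides of 0, except 1419453_at of Uchl5, whose pairs run from -1.41 to -0.09.

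Uchl5, the proteasome and INO80 hydrolase, gave different readings on its probe sets, which the annotation lists under the same target transcript record. On probe set 1419452_at the log2 levels were 8.92, 8.37 and 7.47 on wild-type arrays 1, 2 and 3 and 8.59, 8.72 and 8.18 on mutant arrays 1, 2 and 3. Here wild-type array 3 was the lowest and the groups overlapped. Wild type averaged 8.25 ± 0.73 and mutant 8.50 ± 0.28 (SD, n = 3 each), a log2 difference of 0.24 (SE 0.41). On probe set 1419453_at the log2 levels were 7.19, 6.63 and 6.64 in wild type, against 7.11, 5.73 and 5.24 in mutant. Mutant arrays 2 and 3 were below all wild-type arrays, mutant array 1 was among them, and the groups overlapped. The means were 6.82 ± 0.32 and 6.02 ± 0.97, a log2 difference of -0.80 (SE 0.61).

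The first Uchl5 probe set changed sign, to -0.15 (log2), when wild-type array 3 was left out, and was 0.01 without both arrays numbered 3. The second ran from -1.31 without mutant array 1 to -0.41 without mutant array 3, so that single arrays moved it by over 1.5 times. Without mutant array 1 its groups no longer overlapped. Across the 6 arrays the levels of these probe sets correlated at 0.18 (Pearson's r, a description over 6 arrays that share their processing). Each Uchl5 probe set is therefore described on its own.

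Bap1, the histone H2A deubiquitinase, varied more among arrays of a genotype than between genotypes. On probe set 1452039_a_at the log2 levels were 6.69, 6.87 and 8.50 on wild-type arrays 1, 2 and 3 and 6.92, 5.22 and 8.48 on mutant arrays 1, 2 and 3. Both arrays numbered 3 were high and mutant array 2 was low. Wild type averaged 7.35 ± 0.99 and mutant 6.87 ± 1.63 (SD, n = 3 each), a log2 difference of -0.48 (SE 0.95). On probe set 1426354_at the log2 levels were 6.12, 6.52 and 4.48 in wild type, against 6.69, 3.65 and 5.06 in mutant. Here both arrays numbered 3 were lower than both arrays numbered 1, the reverse of the other Bap1 probe set, and mutant array 2 lay at the floor. The means were 5.70 ± 1.08 and 5.13 ± 1.52, a log2 difference of -0.57 (SE 1.03).

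For both Bap1 probe sets the difference changed sign when mutant array 2 was left out, and for 1452039_a_at also without wild-type array 3. Within arrays of the same number, 1452039_a_at differed by 0.23, -1.65 and -0.02 (log2) and 1426354_at by 0.58, -2.87 and 0.58. Only the pair numbered 2 was lower in the mutant by more than 0.02. Without mutant array 2 the log2 differences were 0.35 and 0.17. The former was 0.09 without wild-type array 3 and -1.30 without mutant array 3; the latter ran down to -1.34 without mutant array 1. The levels of these probe sets correlated at 0.10 over the 6 arrays. The annotation lists both under 1 target transcript record.

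**Figure D3:**
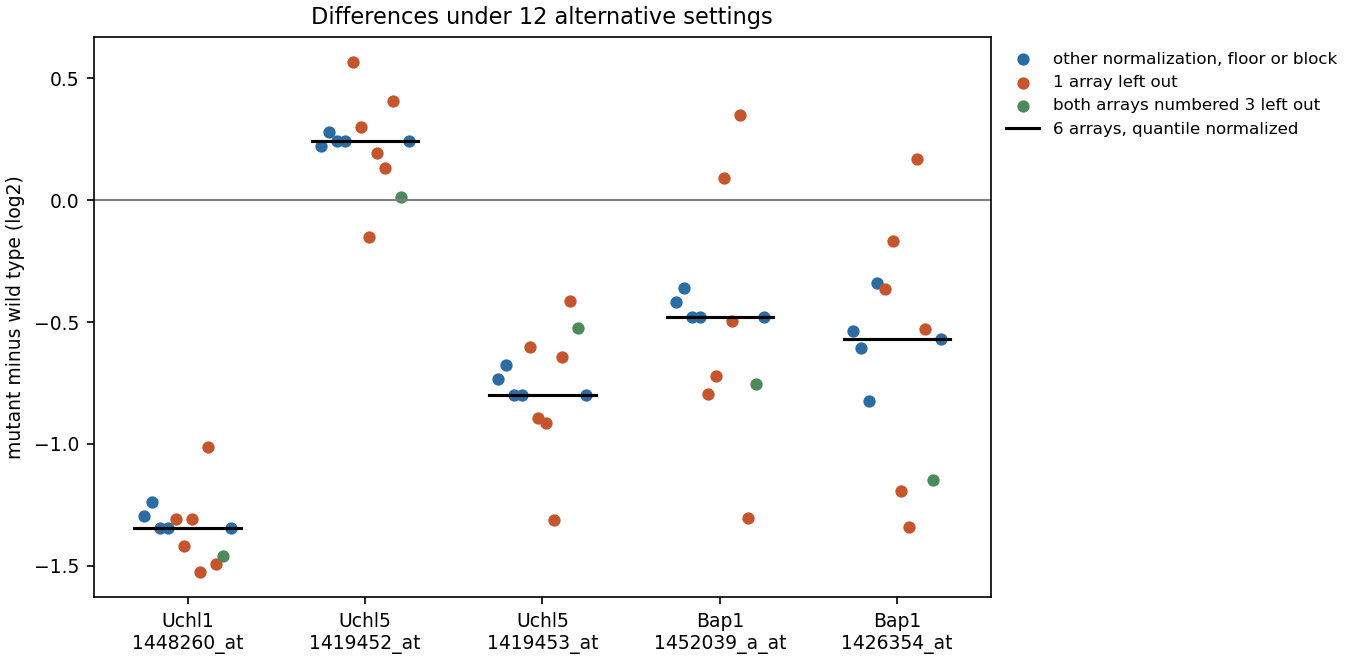
Log2 difference, mutant minus wild type, of each member probe set under 12 alternatives (points) and with all 6 arrays quantile normalized (line). Uchl1 stays between -1.52 and -1.01, while 1 Uchl5 and both Bap1 probe sets have points on either side of 0.

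No gene of the array passed the test. With limma and Benjamini-Hochberg adjustment, 0 of 12703 genes passed an adjusted p of 0.05 (0% called). An unadjusted p under 0.05 was reached by 76 genes (0.598%), of which 56 were lower and 20 higher; with the replicate number as a block there were 157, and again 0 passed. The split by direction turned with the arrays used: 32 of 107 such genes were lower without wild-type array 1 and 84 of 212 without wild-type array 2. For the genes next described, a level and its group overlap are therefore a description, and an adjusted p of 1 applies to each.

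Outside the 4 hydrolases, 10 lists of the ubiquitin system held 197 genes, of which 173 were tested. Limma called 0 of them, and 0 had an unadjusted p under 0.05. In the mutant, 94 were lower and 79 higher, with a median log2 difference of -0.02, beside 6682 lower (52.6%) and a median of -0.02 for all genes tested. The groups did not overlap for 2 of the 173, both lower in the mutant, where 1.95% of all genes tested were lower in this way and 0.905% higher. These were Cops5 and Cops6, metalloprotease-fold subunits of the COP9 signalosome, which removes NEDD8 from cullins; Cops6 is named after its values were seen. Cops5 had log2 levels of 10.09, 10.17 and 10.60 in wild type, against 9.93, 9.97 and 10.02 in mutant, a difference of -0.31 (SE 0.25). Cops6 had levels of 8.77, 9.11 and 8.77 against 8.70, 8.33 and 8.68, a difference of -0.32 (SE 0.33). In both the gap between the groups was narrower than the spread within one of them.

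**Figure D4:**
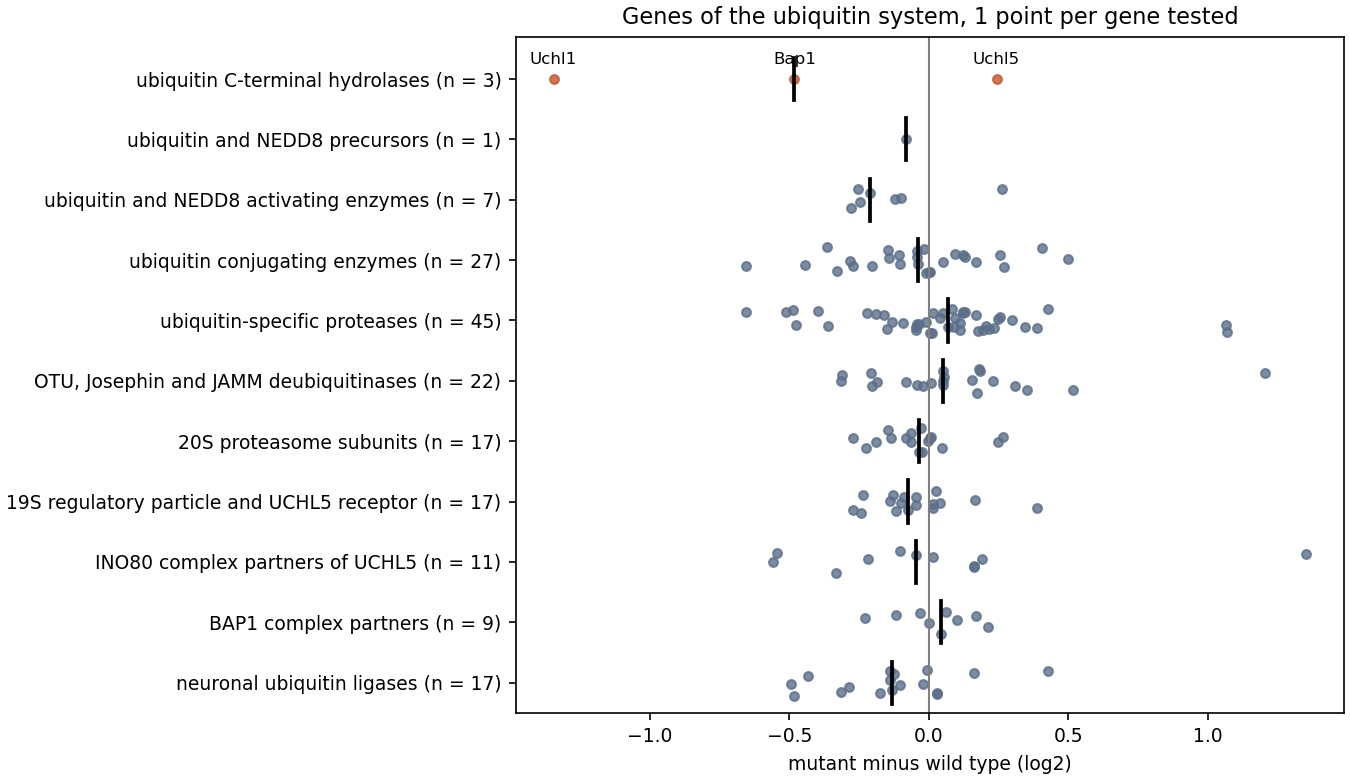
Log2 difference, mutant minus wild type (x axis), of each gene tested in the 4-hydrolase list (orange) and 10 further lists of the ubiquitin system (blue), with list medians as black bars; vertical scatter only separates points. Uchl1 stands at -1.34, and the lowest of the other genes at -0.66. Each gene is shown by its probe set of highest mean, which is 1419452_at for Uchl5 and 1452039_a_at for Bap1. The second Uchl5 probe set, at -0.80, and the second Bap1 probe set, at -0.57, are not shown.

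Precursors and the first enzymes of the pathway are the steps that supply and activate the substrates of these hydrolases. Of the 5 precursor genes only Nedd8 had a probe set of its own name, with a log2 difference of -0.08 (SE 0.24) on levels of 10.42, 10.50 and 10.62 in wild type, against 10.65, 10.03 and 10.62 in mutant. Of 7 activating enzymes and NEDD8 pathway genes tested, 6 were lower and 1 higher, with a median log2 difference of -0.21, and limma called 0. Uba3 and Nae1, the subunits of the NEDD8 activating enzyme, differed by -0.25 (SE 0.30) and -0.21 (SE 0.37) with overlapping groups. Uba6, which also activates ubiquitin, differed by -0.25 (SE 0.44), and Dcun1d1, a cofactor of cullin neddylation, by 0.26 (SE 0.37). Of 27 conjugating enzymes, 17 were lower and 10 higher with a median of -0.04, and limma called 0. Ube2d3, a broadly used conjugating enzyme, differed by 0.05 (SE 0.18), Ube2h by 0.25 (SE 0.22), Ube2r2, which works with cullin ligases, by 0.27 (SE 0.27), Ube2q2 by 0.50 (SE 0.41) and Ube2t, of DNA crosslink repair, by -0.65 (SE 0.78).

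Deubiquitinases of other classes were measured both above and below the wild-type level. Of 45 ubiquitin-specific proteases tested, 17 were lower and 28 higher, with a median log2 difference of 0.07, and limma called 0. That median was -0.15 without wild-type array 3. Usp12 differed by -0.36 (SE 0.27), Usp16, a histone H2A deubiquitinase, by -0.48 (SE 0.50), and Usp9x by 0.13 (SE 0.22). Usp15 and Usp40 each differed by 1.07 (SE 0.75 and 0.93). The wild-type levels of Usp40 were 7.11, 7.84 and 3.65 (log2), the last at the floor, against 7.22, 7.33 and 7.26 in mutant. The levels of Usp15 were 7.84, 7.22 and 4.74 against 7.31, 7.82 and 7.87, so for both genes wild-type array 3 alone was low. Of 22 OTU, Josephin and JAMM deubiquitinases, 8 were lower and 14 higher with a median of 0.05, and limma called 0. Among them Eif3f, an initiation factor subunit with the JAMM fold, differed by 0.35 (SE 0.27), Atxn3, the deubiquitinase that carries the polyglutamine tract of Machado-Joseph disease, by 0.52 (SE 0.44) and Otud4 by 0.06 (SE 0.18). Mysm1, a histone H2A deubiquitinase, differed by 1.21 (SE 1.00), again with wild-type array 3 at the floor, at 3.65.

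The proteasome subunits, partners of UCHL5, all differed by at most 0.39 (log2) between the genotypes. Of 17 proteasome core subunits, 12 were lower and 5 higher in the mutant, with a median log2 difference of -0.03 and a range from -0.27 to 0.26. Of 17 subunits of the regulatory particle, 11 were lower and 6 higher, with a median of -0.07 and a range from -0.27 to 0.39. Limma called 0 in either list, and Adrm1, the receptor of UCHL5, had no probe set of its own name. Psma3, a core subunit, stood at 11.27 ± 0.13 on wild-type and 11.27 ± 0.10 on mutant arrays (SD, n = 3 each). Psma7 and Psmb7 of the core differed by -0.23 (SE 0.28) and -0.15 (SE 0.23). In the regulatory particle Psmc3, an ATPase, differed by -0.24 (SE 0.25), Psmd1, a scaffold subunit, by -0.27 (SE 0.32), and Psmd6 by 0.01 (SE 0.21). Both proteasome lists were lowest in the pair numbered 2, with medians of -0.31 and -0.45 there against values from 0.03 to 0.12 in the other pairs. The median of all genes tested in that pair was -0.15.

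In the INO80 complex, the other partner of UCHL5, 6 of 11 genes were lower and 5 higher, with a median log2 difference of -0.05, and limma called 0. Yy1, the zinc finger subunit, differed by -0.05 (SE 0.20), Ino80d by -0.54 (SE 0.53), Ino80e by -0.56 (SE 0.64) and Tfpt by -0.33 (SE 0.43). Ruvbl2, an ATPase of the complex, differed by 1.35 (SE 1.03), with levels of 7.89, 8.37 and 3.65 in wild type, against 7.86, 7.52 and 8.59 in mutant, so that wild-type array 3 alone was low, at the floor. Of 9 partners of BAP1, 3 were lower and 6 higher, with a median of 0.04, and limma called 0. Among them Ogt, the enzyme that adds O-linked N-acetylglucosamine, differed by 0.21 (SE 0.30), Asxl2 and Asxl3, cofactors of BAP1, by 0.17 (SE 0.35) and -0.23 (SE 0.32), and Mbd6 by 0.10 (SE 0.21).

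Ubiquitin ligases with known roles in neurons form the last list of the pathway. Of 17 tested, 13 were lower and 4 higher, with a median log2 difference of -0.13, and limma called 0. Their median was -0.0052 without mutant array 2. Trim2, a ligase of axons, stood at 11.08 ± 0.16 on wild-type and 10.94 ± 0.16 on mutant arrays (SD, n = 3 each). Ube3a, the ligase lost in Angelman syndrome, differed by -0.28 (SE 0.30), Siah2 by -0.49 (SE 0.47), Fbxo7, a gene of familial parkinsonism, by -0.48 (SE 0.64) and Syvn1, a ligase of the endoplasmic reticulum, by 0.43 (SE 0.52). All of these groups overlapped.

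Genes of olfactory neurons were lower on the same arrays as Uchl1. In whole tissue, fewer neurons and less RNA per neuron cannot be told apart. The summed normalized intensity of 14 markers of mature olfactory sensory neurons ran from 11416 to 14088 in wild type and from 7386 to 8630 in mutant, and that of 20 markers of immature neurons from 39307 to 44368 and from 34993 to 38813. Neither range overlapped, and 0 markers of either list lay at the floor on all 6 arrays. For the immature markers the gap was narrow, with the lowest wild-type sum at 39307 and the highest mutant sum at 38813. That sum includes the bright markers Stmn3 and Stmn2, which differed by -0.80 (SE 0.19) and -0.94 (SE 0.23). Whether the ranges stay apart without these markers was not tested. Of 13 mature markers tested, 11 were lower and 2 higher, with a median log2 difference of -0.82; of 20 immature markers, 14 were lower and 6 higher, with a median of -0.20. Limma called 0 in either list. At an unadjusted p under 0.05, 7 mature and 2 immature markers were lower and 0 higher, where 0.441% of all genes tested were lower and 0.157% higher. As the lists were chosen with earlier results of these data known, these counts are a description and support nothing. Gnal, the olfactory G protein subunit, is named for its small p and had levels of 10.36, 10.21 and 10.24 in wild type, against 9.10, 9.48 and 9.48 in mutant. Omp, another mature marker, had levels of 8.81, 7.92 and 7.40 against 7.56, 7.41 and 8.06, with overlapping groups and a difference of -0.36 (SE 0.48). The 2 mature markers that were higher, Adcy3 and Cngb1, differed by 0.36 (SE 0.45) and 0.73 (SE 0.69), also with overlap. Of 6 tested markers of sensory nerve fibres and ganglion neurons, 4 were lower and 2 higher, with a median log2 difference of -0.33, and limma called 0. Among them Prph and Ina, intermediate filament proteins of nerve fibres, differed by -2.74 (SE 0.70) and -1.32 (SE 0.35). Isl1, a LIM homeodomain factor of sensory neurons, differed by 0.62 (SE 0.31). The groups of Prph, Ina and Isl1 did not overlap. Prph lay at the floor, at 3.65, on mutant array 2 and near it, at 4.63 and 4.59, on mutant arrays 1 and 3. The part of neuron number in the difference of Uchl1 was not tested.

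The summed intensities of the lists for other cells overlapped between the genotypes. For sustentacular cells and Bowman glands, the supporting and secretory cells, it ran from 7119 to 10985 in wild type and from 8935 to 11352 in mutant (10 markers), and for horizontal basal cells, the reserve stem cells, from 3884 to 7986 and from 5820 to 8634 (8 markers). Globose basal cells and progenitors (7 markers) ran from 9330 to 12718 and from 9568 to 12747. Markers of multiciliated respiratory cells, ensheathing glia, leukocytes, squamous epithelium, sensory nerve fibres and vomeronasal neurons overlapped as well.

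Each gene was also set against its own mean over the 6 arrays, which allows Uchl1 and the lists to be read side by side. Uchl1 stood at 0.71, 0.54 and 0.76 (log2) on wild-type arrays 1, 2 and 3 and at -0.28, -1.37 and -0.37 on mutant arrays 1, 2 and 3. The median of the mature neuron markers stood at 0.56, 0.11 and 0.40, then at -0.43, -0.38 and -0.25. On mutant array 2, where Uchl1 was lowest, the mature markers were not lower than on mutant array 1. The immature markers stood at 0.22, 0.08 and 0.07, then at -0.09, -0.11 and -0.06.

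**Figure D5:**
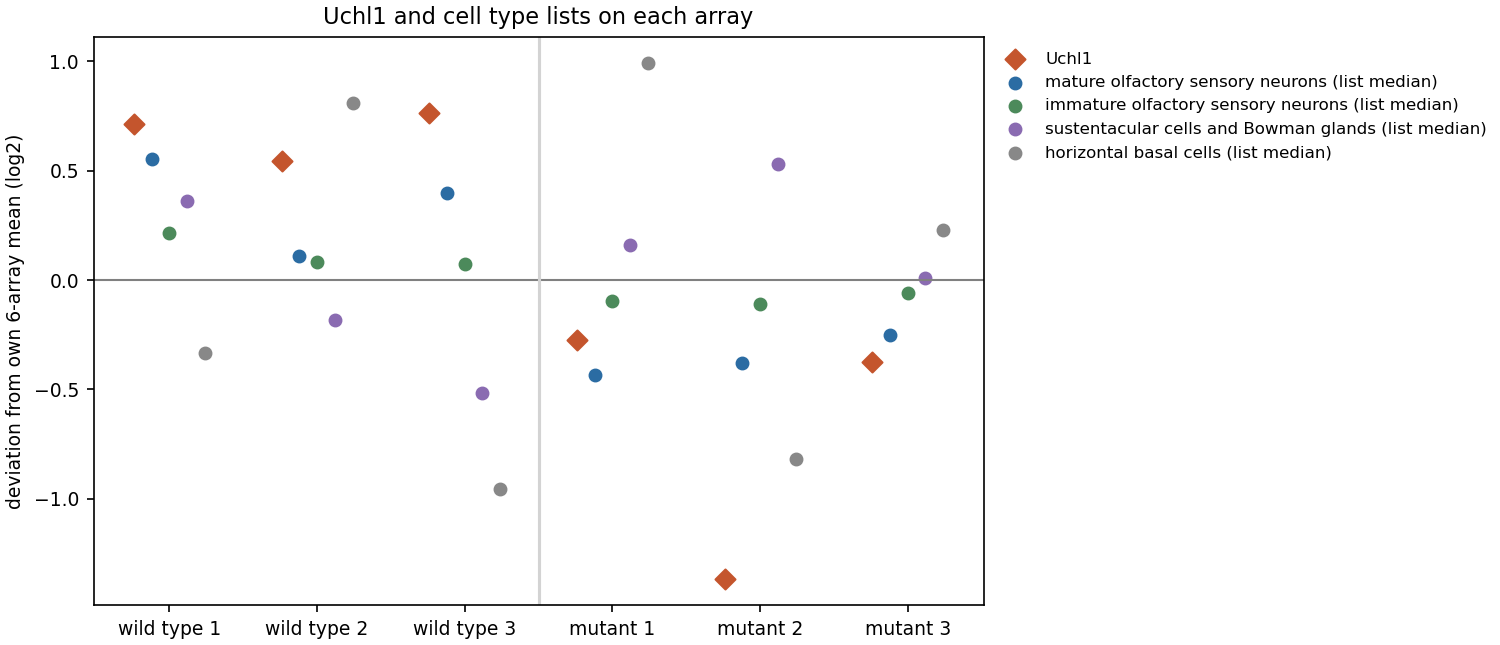
Deviation of log2 intensity from the 6-array mean (y axis) on each array, for Uchl1 (diamonds) and for the median of 4 cell type lists (circles). Uchl1 and both neuron lists are above 0 on wild-type and below 0 on mutant arrays; Uchl1 reaches -1.37 on mutant array 2, where the mature list is at -0.38.

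The genes whose levels ran most like those of Uchl1 over the 6 arrays were Tstd3, Cenpt, Wdr17, Stmn2, Crcp, Napb, Mrps22 and Ndrg3, with Pearson's r from 0.99 down to 0.96. With clone names left out, these are the highest of 12703 correlations over 6 arrays that share tissue and processing, and are given as a description. Wdr17 had levels of 8.01, 7.62 and 7.67 in wild type, against 6.03, 4.71 and 6.52 in mutant. Stmn2, a neuronal microtubule regulator of growing axons, had levels of 11.08, 10.97 and 11.10 against 10.20, 9.79 and 10.35. Napb, the neuronal form of the SNAP protein of vesicle fusion, had levels of 9.09, 9.13 and 9.29 against 8.76, 8.47 and 8.75. All 8 were lowest on mutant array 2, as Uchl1 was. This is not particular to them, as the median deviation of all genes tested from their 6-array means was also lowest there, at -0.10 (log2). The genes that ran most opposite were Arid5b, Prkg1 and Lpcat3, with r of -0.98, -0.95 and -0.94, and these were highest on mutant array 2. With medians of the arrays made equal, 3 of the 8 most alike were the same genes, and with deviations from the group means 0 were. The r of the 8 named genes with group means removed still ran from 0.88 to 0.98, but other genes ranked above them. They were picked on these same arrays. The median correlation with Uchl1 was 0.74 for the 13 mature neuron markers, 0.44 for the 20 immature markers and 0.07 for all genes tested, and with the group means removed it was 0.08, 0.12 and 0.13.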

How the data were processed

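Per the labels, total RNA of olfactory epithelium was column-purified, amplified and biotin-labelled, with 1 pup per array. The authors deposited linear intensities, 1 for each probe set on each array; probe condensation and array scaling are steps not given in the sources used here. Array medians ran from 38.21 to 61.59, so values were quantile normalized, given a floor (12.56, the 20th percentile) and log2 transformed. Differences near the floor are understated. Of 45037 probe sets, 34945 had 1 gene symbol and alone were named; 932 had several and 9160 had none. Members were read from a fit of all probe sets. For other genes the probe set with the highest mean was kept, and those in the lowest 40% (below 5.19, log2) were left out, leaving 12703 genes. All 5 member probe sets were above that level.

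The genotypes were compared in limma 3.58.1 under R 4.3.3 (lmFit, eBayes with an intensity trend), two-sided, at a Benjamini-Hochberg adjusted p of 0.05. The fit was tested on simulated data with the arrays' own spread: the known differences were recovered on average, but most of the genes given one, also of the larger size, were not called. The number of arrays limits the precision. The members and lists were chosen with earlier results of these data known. Named genes are the members, Klf7, per ubiquitin list up to 4 of smallest p and the brightest, per cell type list up to 3 of smallest p, and the 8 most and 3 least correlated with Uchl1, clone names skipped. Cops6, Omp, Adcy3 and Cngb1 were named after their values were seen. A list's count and median stand beside those of all genes.

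The labels number the replicates without saying what a number shares. Deviations from group means correlated at 0.47, 0.18 and 0.56 for same-numbered arrays, all above 0.1, so these arrays were also compared as pairs. The main fit, with the SEs printed unless a block is named, left the number out. With the number as a block, the SE of each member probe set was smaller. It was 0.50 against 0.95 for 1452039_a_at of Bap1 and 0.41 against 0.61 for 1419453_at of Uchl5. This replicate block was an alternative. Others changed normalization, floor, dim filter, probe set choice, variance trend and arrays used.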

Additional observations from a re-analysis of the deposited data

How the results depend on the processing

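Limma called 0 of all genes and 0 genes of the 10 ubiquitin lists under each of 15 alternatives. With the replicate block the Uchl1 difference was -1.34 with SE 0.25 against 0.32 without it, and the paired fit changed no call. For the member probe sets no alternative moved a difference by more than the SD between arrays pooled over both genotypes, but signs changed: 1419452_at of Uchl5 kept its sign under 11 of 12 alternatives, and 1452039_a_at and 1426354_at of Bap1 under 10 and 11. With 1 array left out, the median of 9 of the 10 lists changed sign, so these small medians have no settled direction. For ubiquitin-specific proteases it ran from -0.15 to 0.14. The exception was neuronal ubiquitin ligases, whose median stayed below 0 but ran from -0.17 to -0.0052. The ligase median was -0.019 without both arrays numbered 3 and -0.0081 with the mean of probe sets. With values as deposited, medians below 0 turned positive for 5 lists: conjugating enzymes (0.051), INO80 partners (0.043), proteasome core (0.035), precursors (0.019) and regulatory particle (0.0076), and the median of all genes was 0.064. Of the 8 genes most like Uchl1, 3 were shared with array medians set equal and 0 with deviations from group means. Unadjusted counts ran from 67 to 212 with 1 array left out, against 76 (leaving out wild-type array 2 gave 212 and wild-type array 3 gave 132), and came to 120 without both arrays numbered 3. No depth is known for these intensities.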
